A study of Rattus norvegicus with 4 samples.

Results

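Ribosome biogenesis genes encode the factors that transcribe, modify, cut and assemble ribosomal RNA in the nucleolus. RNA polymerase I makes a long precursor, and small nucleolar ribonucleoproteins (snoRNPs) modify its nucleotides. Assembly factors fold and trim it with ribosomal proteins into the small (40S) and large (60S) subunits. Cells that grow before dividing make more ribosomes, and many of these genes are known targets of the transcription factor MYC. The genes described here are 34 named members of that machinery, and each was represented by the probe sets annotated to it and to no other gene. They were measured by 42 of the 31099 probe sets on each array, which gave values for 33 of the 14218 named genes. The exception was Npm1 (nucleophosmin, a nucleolar chaperone): its 3 probe sets are annotated to a pseudogene as well, so it has no value of its own and the counts below leave it out.

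The 4 arrays came from smooth muscle cells grown from the aorta of Sprague-Dawley rats, the contractile cells of the arterial wall. All cultures had 3 days in medium with serum and 3 days without it, and then 24 h with a factor or a vehicle. The groups were 2.5 ng/mL interleukin-1b (IL-1b, an inflammatory cytokine), its vehicle of 10 mM acetic acid with 0.1% BSA (an albumin carrier), 30 ng/mL PDGF-DD (a platelet-derived growth factor dimer that signals mainly through PDGF receptor beta), and a vehicle of 0.01% BSA for that. Each group was 1 sample on 1 array, so no difference below has a replicate check, a standard deviation or a p-value, and the number of arrays limits the precision. The cultures are bulk samples: more RNA of a gene per cell and more cells that express it cannot be told apart. The arrays were also scaled to a common level, so a change in the total RNA of a cell would not show.

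Values are MAS5 intensities scaled to a common trimmed mean, and a gene with several probe sets is given by the brightest. All 33 genes lay above the floor, an intensity of 28.1 below which values were set equal, on all 4 arrays. Of the smooth muscle markers, 8 of 8 were above the floor on the IL-1b vehicle array and 7 of 8 on each of the others, where desmin (Des) was at the floor. Their summed intensity was 28035 with the IL-1b vehicle, 8617 with IL-1b, 20195 with the PDGF-DD vehicle and 4704 with PDGF-DD. Of 6 endothelial markers 5 (Pecam1, Kdr, Vwf, Tie1 and Emcn) were at the floor on all arrays, and Tek reached 40.02 at most; the summed intensity ranged from 168 to 180. Of 6 leukocyte markers 5 (Ptprc, Cd68, Itgam, Csf1r and Cd3e) were at the floor on all arrays, and Aif1 reached 38.2 with IL-1b alone; the sum ranged from 168 to 179.

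With PDGF-DD, 33 of 33 ribosome biogenesis genes were higher than with its vehicle, with a median log2 ratio of 0.68 (1.60-fold). Over all genes measured in that comparison 51% were higher, and the median was 0.01. At least 1.5-fold higher were 20 of 33, against a background of 12.6% of 10142 genes, and 0 were lower by that much, against 12.4%. At least 2-fold higher were 6, against 4.24%: Rrs1, Heatr1, Rrp12, Gar1, Nop56 and Ebna1bp2. Rrp12 reached 2-fold on its brightest probe set only. Among genes in the same range of mean intensity (175 to 3997), 10.6% were at least 1.5-fold higher and 2.89% at least 2-fold. The lower and upper quartiles of the members' log2 ratios were 0.46 and 0.96, and the ratios ran from 0.11 (Nob1) to 1.35 (Rrs1).

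With IL-1b the same genes stayed near the level of its vehicle. The median log2 ratio was 0.10 (1.07-fold), beside 0.02 over all genes, and 26 of 33 were higher (52.5% over all genes) and 7 lower. None was 1.5-fold higher (background 13.2% of 10679 genes) or 1.5-fold lower (background 11.8%). The range ran from -0.58 for Dkc1 to 0.44 for Noc4l. These values are those of the brightest probe sets. Dimmer ones of Nop56, Nolc1 and Wdr75 were at least 1.5-fold lower with IL-1b, and 1 of Rrp12 was higher by that much. The log2 ratio with PDGF-DD exceeded that with IL-1b in 30 of 33 genes (background 50.9%), and by at least 1 in 6 of them (background 6.56%); the median difference (IL-1b minus PDGF-DD) was -0.66, and the exceptions were Polr1a, Polr1c and Ncl.

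The arrays of both vehicles show how far these genes lay apart without a factor; the vehicles' make-up cannot be told apart from any difference between the cultures or arrays. The median log2 ratio of PDGF-DD vehicle over IL-1b vehicle was -0.08, beside -0.05 over all genes. At least 1.5-fold lower on the PDGF-DD vehicle array were Rrp12 and Wdr75 (2 of 33, background 13.8%), and 0 were higher by that much (background 12.5%). Both differences are those of the brightest probe set, and a dimmer one of each gene gave the opposite sign (log2 ratios of 0.63 for Rrp12 and 0.30 for Wdr75, against -0.68 and -0.66). A further dimmer one of Rrp12 gave -0.23, the same sign as the brightest. Set against the IL-1b vehicle array instead of its own, the PDGF-DD array was higher in 30 of 33 genes (47.2% over all genes; median log2 ratio 0.64), by at least 1.5-fold in 20 (background 19.6%) and at least 2-fold in 7 (background 9.64%). Nob1, Wdr75 and Pes1 were the exceptions. Counted against both vehicle arrays at once, 18 genes were at least 1.5-fold higher with PDGF-DD (background 9.06%) and 3 (Nop56, Gar1 and Rrs1) at least 2-fold (background 3.26%). These comparisons share the PDGF-DD array, so they are not independent of each other. IL-1b set against the PDGF-DD vehicle gave a median of 0.13, with 2 genes, Rrp12 and Polr1a, at least 1.5-fold higher (background 14.7%) and 0 lower (background 11.6%). The PDGF-DD array was the highest of the 4 in 28 of 33 genes, against 29.4% of 10885 genes above the floor on any array. The IL-1b array was highest in 4 (Polr1a, Mybbp1a, Nob1 and Pes1; background 28.8%), the IL-1b vehicle array in 1 (Wdr75; background 29.4%) and the PDGF-DD vehicle array in 0 (background 12.4%). Compared directly, the PDGF-DD array was at least 1.5-fold higher than the IL-1b array in 16 genes (background 15.2%), with a median log2 ratio of 0.57.

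**Figure D1:**
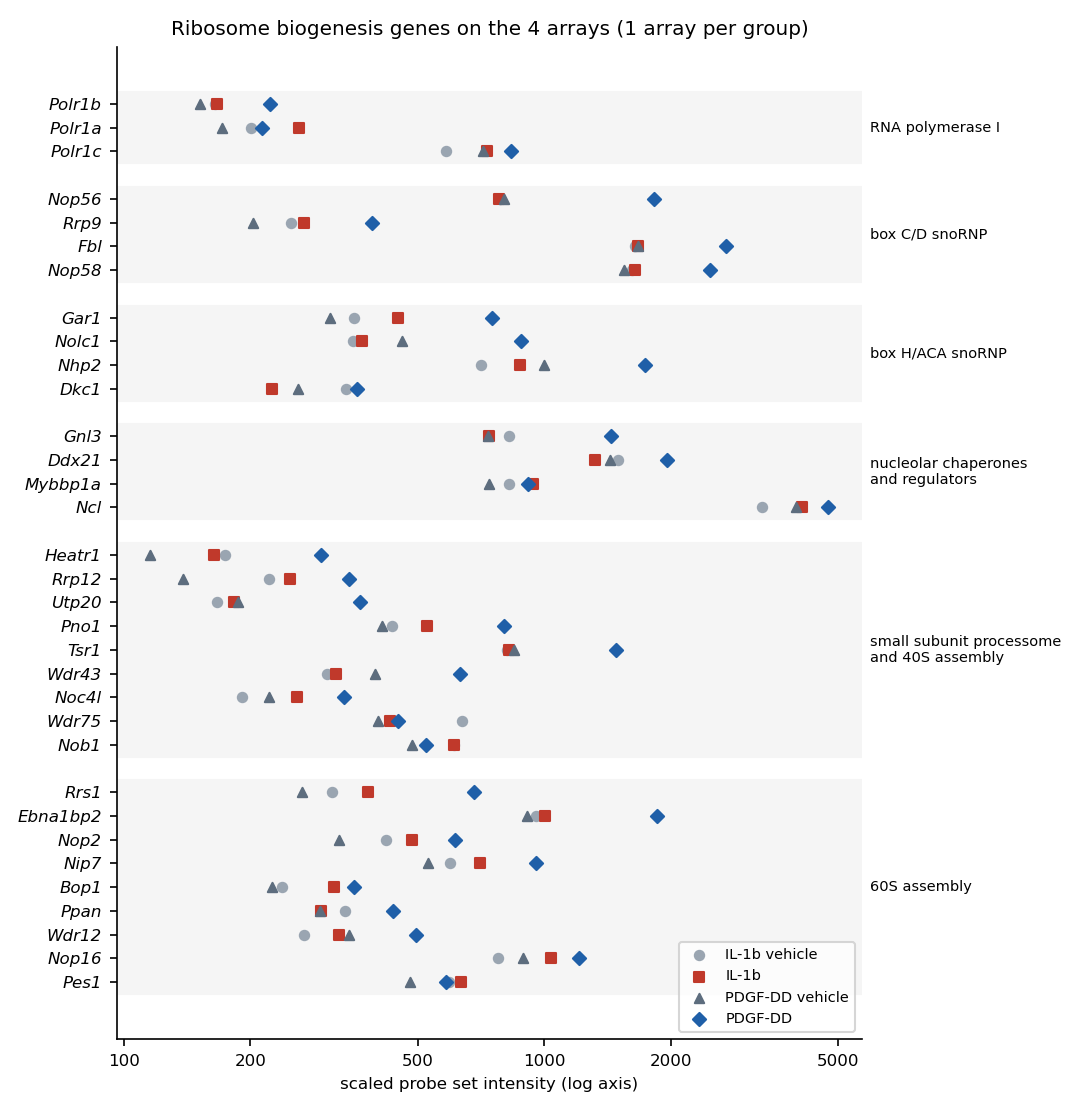
Scaled probe set intensity (log axis) of 33 ribosome biogenesis genes on the 4 arrays, in rows grouped by role and ordered within a role by the PDGF-DD ratio; each point is 1 array. Within a row the PDGF-DD diamond is the rightmost point in 28 of 33 genes (29.4% over all genes), and intensities of different rows come from different probes and are not to be compared.

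Since all measured members were higher with PDGF-DD, their promoters were searched for motifs. The motif CACGTG is an E-box that MYC binds together with its partner MAX, and it reads the same on both strands. In RefSeq's GRCr8 table, 31 of the 34 genes have a promoter window of 300 bases, from 250 before to 50 after the start of the gene. Of these 12 (38.7%) held CACGTG, beside 6.65% of 27457 promoters in the table and 9.73% of the 9107 that belong to genes measured here. The 13 sites are shown because CACGTG was the motif, of 4 searched, that these promoters held more often than both sets. Each is printed 5′ to 3′ on the strand of the gene, with CACGTG in capitals and up to 12 bases on either side.
Dkc1 (chrX:157751455-157751484, plus strand): agcgtcccggcgCACGTGcgggccccaccc
Ebna1bp2 (chr5:137433552-137433581, plus strand): gcgtcttgctggCACGTGgagtggcagccg
Fbl (chr1:92597416-92597445, plus strand): ggcgcttttttcCACGTGtgaaagcctgag
Gnl3 (chr16:6219790-6219819, minus strand): agttccagttcgCACGTGgcgcccgagacg
Mybbp1a (chr10:57555290-57555319, plus strand): gcagtttctacaCACGTGtgcgagcacagg
Mybbp1a (chr10:57555445-57555474, plus strand): gtctttcgagccCACGTGtttggttcagca
Nop2 (chr4:159618992-159619015, plus strand): cttccccaagtgCACGTGgagcgg
Pes1 (chr14:83074284-83074313, plus strand): ccctaagcggggCACGTGcggtaggaagta
Pno1 (chr14:95819885-95819914, minus strand): ggcacaacctcgCACGTGttccagtggttg
Rrp12 (chr1:250655298-250655327, minus strand): gctgagaatacaCACGTGggttctgctgtg
Tsr1 (chr10:60258798-60258827, plus strand): gtttactcggtgCACGTGggcagttagaat
Utp20 (chr7:25102959-25102988, minus strand): cagcactagctaCACGTGagaaaaagcaga
Wdr75 (chr9:55395060-55395089, plus strand): tcactctttctaCACGTGttttaatttgac
Of the 13 sites 7 began before the start of the gene and 6 (46.2%) in the 50 bases after it, where 10.1% of the 999 sites in promoters of measured genes began. The 12 genes with the motif had PDGF-DD log2 ratios from 0.16 to 1.31 (median 0.86, with 8 at least 1.5-fold higher). The 18 measured genes whose window lacks it had ratios from 0.11 to 1.35 (median 0.58, with 9). The first range lies within the second. Over all genes measured, with or without the motif, 12.6% were at least 1.5-fold higher, and the difference between these groups of members was not tested. Of the members at least 2-fold higher, Rrp12 and Ebna1bp2 hold CACGTG in this window and Gar1, Heatr1 and Nop56 do not. Rrs1 is not among the 31. The IL-1b medians were 0.08 with and 0.17 without the motif.

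Other motifs were searched on both strands in the same windows and none was more frequent in them than in promoters of measured genes. CCAAT was found in 19.4% of them, beside 38.3% of promoters of measured genes and 37.7% of all in the table. The GC box GGGCGG was found in 54.8%, below the 63.8% of measured genes but above the 34.9% of all, and TATAAA in 6.45%, beside 6.83% and 14.3%. A match is a string of letters and not a bound site. CACGTG was also found in 27.1% of 96 promoters of other ribosome biogenesis factors, 7.94% of 63 promoters of ribosomal proteins and 9.09% of 22 promoters of S phase genes.

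Myc, which encodes the MYC protein, had intensities of 566 with the IL-1b vehicle, 453 with IL-1b, 426 with the PDGF-DD vehicle and 784 with PDGF-DD. It was thus highest with PDGF-DD, 1.84-fold above its vehicle, and 1.25-fold below its vehicle with IL-1b, while the vehicle arrays were 1.33-fold apart. Its partner Max read 1087, 1227, 748 and 781 in the same array order. That is a 1.04-fold difference with PDGF-DD and a 1.45-fold one between the vehicles. Mxd4, which pairs with MAX and opposes MYC, was 2.03-fold lower with PDGF-DD (195 against 396). Mxd3, of the same family, was 1.77-fold higher (137 against 77.7), but 2.77-fold apart between the vehicles and at the floor with that of IL-1b. Over 9 measured genes of the MYC network the median log2 ratio with PDGF-DD was 0.01. At least 1.5-fold higher were 2 (background 12.6%) and lower 1 (background 12.4%). With IL-1b 0 of 10 were 1.5-fold higher (background 13.2%) or lower (background 11.8%). Whether MYC had a part in the PDGF-DD result was not tested.

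**Figure D2:**
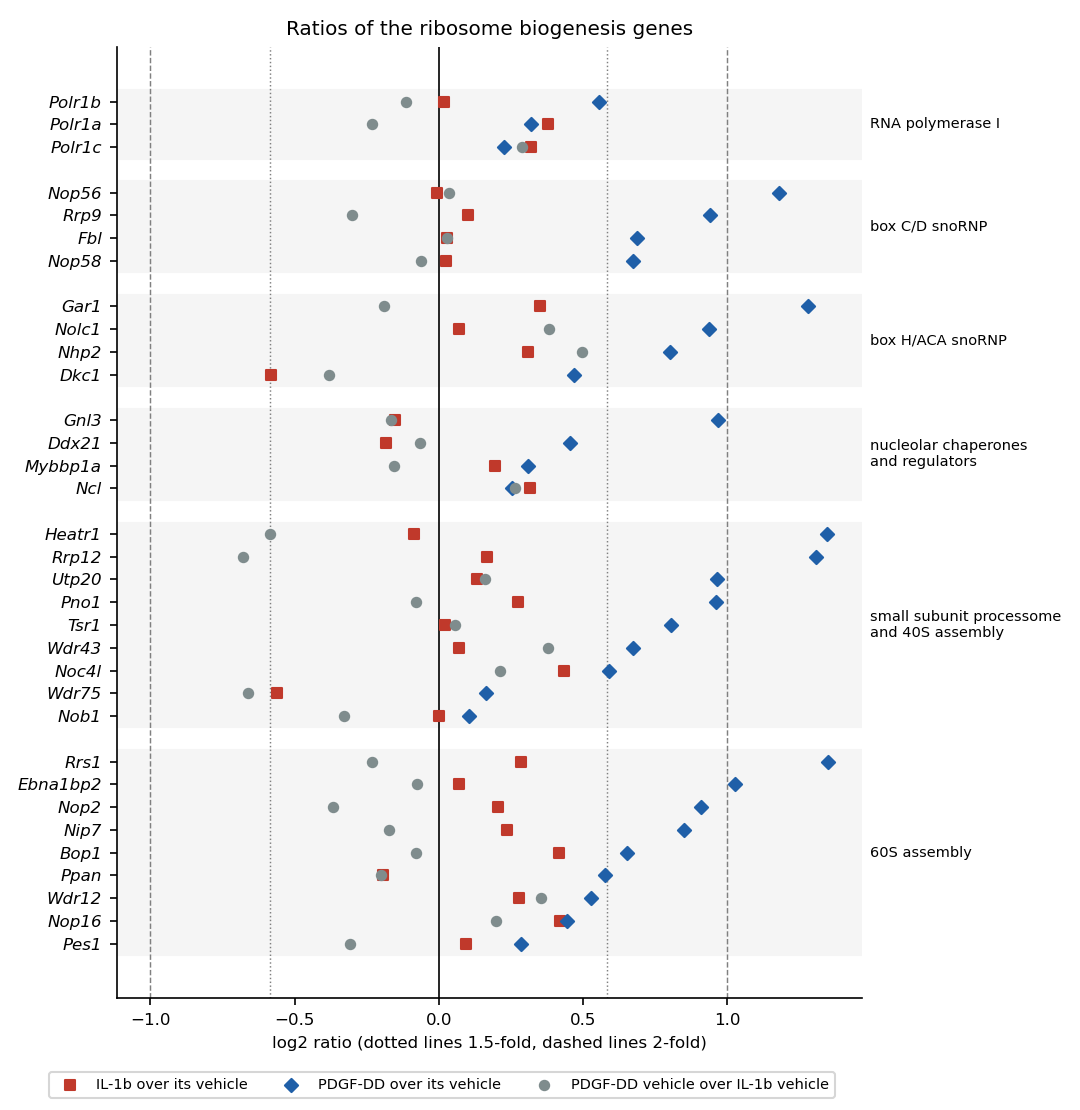
Log2 ratios of the same 33 genes for IL-1b over its vehicle (squares), PDGF-DD over its vehicle (diamonds) and PDGF-DD vehicle over IL-1b vehicle (circles), with dotted lines at 1.5-fold and dashed lines at 2-fold. All diamonds lie to the right of 0, 20 of them at or beyond 1.5-fold, while the squares stay between -0.58 and 0.44.

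The roles below hold 3 to 9 measured genes each, and differences between roles were not tested. RNA polymerase I, which transcribes the ribosomal RNA precursor, was represented by 3 subunits, and 0 of them reached 1.5-fold with either factor. The backgrounds for 1.5-fold higher were 12.6% with PDGF-DD and 13.2% with IL-1b, so 3 genes are too few to differ from them. Polr1a, the largest subunit, had intensities of 200 and 261 with the IL-1b vehicle and IL-1b and of 171 and 213 with the PDGF-DD vehicle and PDGF-DD, so both factors were 1.25-fold (PDGF-DD) and 1.302-fold (IL-1b) above their vehicles. Polr1b, the second-largest subunit, read 164 and 167 in the IL-1b pair and 152 and 223 in the PDGF-DD pair, where it was 1.47-fold higher, just under the 1.5-fold line. Polr1c, shared with RNA polymerase III, went from 585 to 729 with IL-1b and from 714 to 835 with PDGF-DD; its PDGF-DD vehicle value lay beside the IL-1b value. The further machinery of this polymerase gave a median log2 ratio of 0.22 with PDGF-DD over 18 genes. In that list 0 were at least 1.5-fold lower (background 12.4%), and 3 were higher, near the share over all genes (12.6%). These were Taf1d, a subunit of its promoter selectivity factor (697 against 319, 2.19-fold), the subunit Polr1e (232 against 122, 1.90-fold) and Polr2k, a subunit that all 3 nuclear RNA polymerases share (1585 against 913, 1.74-fold). With IL-1b the median of that list was -0.09, with Tcof1 (treacle, a nucleolar factor of ribosomal RNA transcription) 1.58-fold higher and Polr2f 1.94-fold lower. They were the only 1 of 18 past 1.5-fold in either direction (backgrounds 13.2% higher and 11.8% lower).

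The box C/D snoRNP, which carries the methyltransferase for ribosomal RNA, was higher with PDGF-DD in all 4 of its measured members by at least 1.5-fold (background 12.6%). Fibrillarin (Fbl), the methyltransferase, had intensities of 1642 with the IL-1b vehicle, 1675 with IL-1b, 1676 with the PDGF-DD vehicle and 2702 with PDGF-DD. The values of the first 3 arrays were thus nearly equal, and PDGF-DD alone stood apart, 1.61-fold above its vehicle. Nop56 and Nop58 are the scaffold proteins of the particle. Nop56 read 784, 781, 805 and 1825 in the same order, a log2 ratio of 1.18 with PDGF-DD (2.27-fold). Nop58 read 1617, 1646, 1551 and 2475 (1.60-fold). For both, as for Fbl, the IL-1b and vehicle arrays lay close together, with log2 ratios between any pair of them from -0.06 to 0.09. For Nop56 this held on the brightest probe set only. Its dimmer one read 168, 96.6, 171 and 435, a log2 ratio of -0.80 with IL-1b. Rrp9, a protein of the U3 particle that guides the first cuts of the precursor, read 250, 268, 203 and 391, 1.92-fold higher with PDGF-DD. Its vehicle arrays were 1.23-fold apart, so against the IL-1b vehicle its log2 ratio was 0.64 instead of 0.94.

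The box H/ACA snoRNP converts uridine to pseudouridine. Grouped under it here were the core proteins Gar1, Nhp2 and Dkc1 and the chaperone Nolc1. At least 1.5-fold higher with PDGF-DD were 3 of these 4 (background 12.6%): Gar1, Nhp2 and Nolc1. Gar1 had intensities of 352 with the IL-1b vehicle, 450 with IL-1b, 309 with the PDGF-DD vehicle and 751 with PDGF-DD, 2.43-fold above its vehicle. Nhp2, which like Gar1 is a core protein of the particle, read 706, 875, 997 and 1738, 1.74-fold higher with PDGF-DD; its PDGF-DD vehicle value was 1.41-fold above the IL-1b vehicle. Nolc1, a phosphoprotein that chaperones snoRNPs in the nucleolus, read 351, 369, 459 and 879 (1.92-fold). For Nhp2 and Nolc1 the PDGF-DD array was therefore further from the IL-1b vehicle (by 2.46-fold and 2.50-fold) than from its own. Dkc1 (dyskerin), the pseudouridine synthase, differed from these. It read 337 with the IL-1b vehicle, 226 with IL-1b, 259 with the PDGF-DD vehicle and 359 with PDGF-DD, so it was lower with IL-1b (a log2 ratio of -0.58, just inside the 1.5-fold line) and 1.38-fold higher with PDGF-DD. Against the IL-1b vehicle, however, its PDGF-DD log2 ratio was 0.09, and against the PDGF-DD vehicle its IL-1b log2 ratio was -0.20.

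Of 4 measured nucleolar chaperones and regulators, Gnl3 alone reached 1.5-fold with PDGF-DD (background 12.6%). Gnl3 (nucleostemin, a nucleolar GTP-binding protein of proliferating cells) had intensities of 823 with the IL-1b vehicle, 741 with IL-1b, 734 with the PDGF-DD vehicle and 1438 with PDGF-DD, 1.96-fold above its vehicle. Ddx21, an RNA helicase, read 1498, 1319, 1432 and 1963 and was 1.37-fold higher. Ncl (nucleolin, an abundant RNA-binding protein of the nucleolus) read 3301, 4109, 3970 and 4739; it was 1.24-fold higher with IL-1b and 1.19-fold with PDGF-DD, differences about as large as that between the vehicle arrays (1.20-fold). Mybbp1a, a nucleolar protein that binds MYB, read 823, 942, 739 and 916, highest with IL-1b and 1.24-fold higher with PDGF-DD than with its vehicle.

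The small subunit processome and 40S assembly factors cut and fold the precursor toward the small subunit. They were at least 1.5-fold higher with PDGF-DD in 7 of 9 genes (background 12.6%). Heatr1, which also takes part in transcription of the precursor, had intensities of 174 with the IL-1b vehicle, 164 with IL-1b, 116 with the PDGF-DD vehicle and 294 with PDGF-DD. Rrp12, an export and assembly factor, read 221, 249, 138 and 343. These genes were 2.54-fold and 2.48-fold higher with PDGF-DD, but both had their lowest value on the PDGF-DD vehicle array, and against the IL-1b vehicle their log2 ratios were 0.76 and 0.63 instead of 1.35 and 1.31. For Rrp12 these values are those of the brightest probe set. Its dimmer ones gave log2 ratios of 0.18 and 0.62 with PDGF-DD, and the latter was lowest on the IL-1b vehicle array (95.1). Utp20, a large scaffold, read 167, 183, 187 and 364 (1.95-fold), with both vehicles close together. Pno1, which acts with the endonuclease Nob1, read 435, 526, 412 and 801 (1.95-fold), and Tsr1, a late 40S factor, read 814, 826, 847 and 1480 (1.75-fold). In Utp20, Pno1 and Tsr1 the other 3 arrays all lay below the PDGF-DD array. Wdr43, a processome protein, read 304, 319, 395 and 631 (1.60-fold), and Noc4l, a processome component, read 191, 259, 222 and 334 (1.51-fold, just above the line). Noc4l also had the highest IL-1b ratio of the members, 1.35-fold.

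Nob1 and Wdr75 were the genes that PDGF-DD separated least from its vehicle. Nob1, the endonuclease that makes the final cut of the small subunit RNA, had intensities of 610 with the IL-1b vehicle, 610 with IL-1b, 485 with the PDGF-DD vehicle and 522 with PDGF-DD, a 1.08-fold difference. Wdr75, a processome protein, read 636, 431, 402 and 450. It was highest on the IL-1b vehicle array, 1.48-fold lower with IL-1b and 1.12-fold higher with PDGF-DD, and the vehicle arrays were 1.58-fold apart. On this probe set the difference between vehicles exceeded that with either factor. The dimmer probe set of Wdr75 did not show this: it read 197, 125, 242 and 294, highest with PDGF-DD, with a log2 ratio of 0.30 between the vehicles and -0.65 with IL-1b.

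The 60S assembly factors were at least 1.5-fold higher with PDGF-DD in 5 of 9 genes (background 12.6%). Rrs1, which brings the 5S particle into the large subunit, had intensities of 313 with the IL-1b vehicle, 381 with IL-1b, 266 with the PDGF-DD vehicle and 679 with PDGF-DD, the largest PDGF-DD ratio of the members (2.55-fold). Ebna1bp2 read 959, 1007, 911 and 1859 (2.04-fold), with the first 3 values close together. Nop2, an RNA methyltransferase of the large subunit, read 421, 485, 326 and 613 (1.88-fold), and Nip7, an assembly factor, read 598, 705, 530 and 957 (1.81-fold). Both had their lowest value on the PDGF-DD vehicle array. Their log2 ratios against the IL-1b vehicle were 0.54 and 0.68, against 0.91 and 0.85 with their own.

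Pes1, Bop1 and Wdr12 form a complex that processes the precursor of the large subunit RNAs, and their ratios were unequal. Bop1 read 237 with the IL-1b vehicle, 317 with IL-1b, 225 with the PDGF-DD vehicle and 354 with PDGF-DD, 1.33-fold and 1.57-fold above the vehicles. Wdr12 read 269, 326, 343 and 495, 1.44-fold higher with PDGF-DD. Pes1 read 593, 633, 480 and 585, 1.22-fold higher with PDGF-DD and at about the IL-1b vehicle level there (a log2 ratio of -0.02). Ppan, a 60S assembly factor, read 336, 294, 293 and 437, 1.49-fold higher with PDGF-DD and so just under the line. Nop16, a nucleolar protein of 60S assembly, read 775, 1038, 890 and 1211; IL-1b and PDGF-DD gave nearly the same ratio, 1.34-fold and 1.36-fold.

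**Figure D3:**
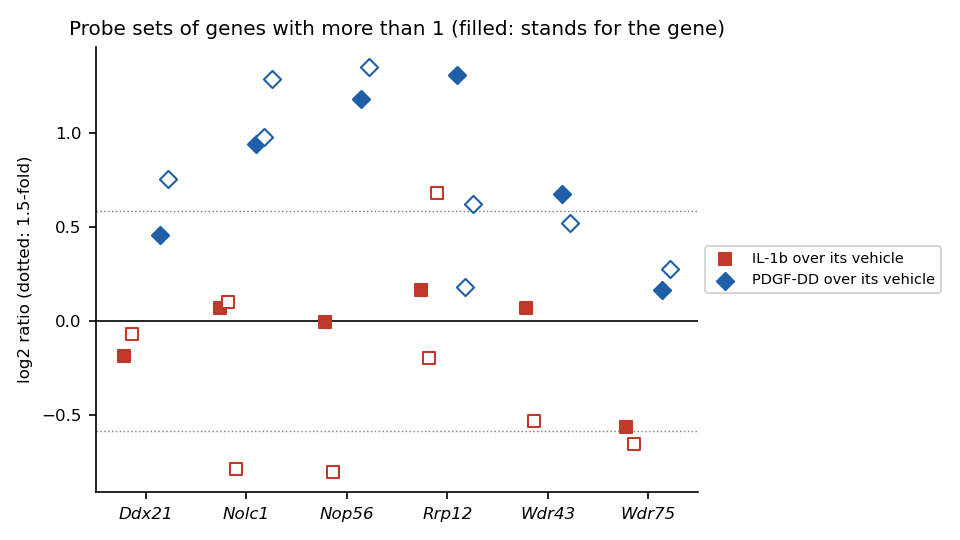
Log2 ratios of each probe set above the floor for the 6 genes with several, for IL-1b (squares) and PDGF-DD (diamonds) over their vehicles; filled symbols stand for the gene and dotted lines mark 1.5-fold. All diamonds lie above 0, from 0.16 to 1.35, while the squares of Nolc1, Rrp12 and Wdr43 lie on both sides of 0.

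Probe sets of the same gene gave the same direction with PDGF-DD. Of 42 probe sets, 41 exceeded the floor somewhere, and 41 of 41 were higher with PDGF-DD, 25 of them by at least 1.5-fold. Shares over all probe sets of the arrays were not computed. The probe set counts given here therefore describe only how probe sets of the members compare with each other. The sizes differed most for Rrp12, whose further probe sets gave log2 ratios of 0.18 and 0.62 against 1.31 for the one that stands for it. For Nop56 the dimmer probe set gave 1.35, for Nolc1 0.98 and 1.29, for Ddx21 0.75, for Wdr43 0.52 and for Wdr75 0.28. With IL-1b the signs were mixed in 3 of the 6 genes: 28 of 41 probe sets were higher and 13 lower. At least 1.5-fold lower with IL-1b were 3 probe sets that do not stand for their genes: those of Nop56 (96.6 against 168), Nolc1 (34.3 against 59.1) and Wdr75 (125 against 197). At least 1.5-fold higher was 1 of Rrp12 (152 against 95.1). The brighter probe sets of Nop56 and Nolc1 gave -0.0048 and 0.07 with IL-1b. Between the vehicles the signs were mixed in 5 of the 6 genes, all but Nop56, so the direction of those differences turns with the probe set. For Nolc1 the log2 ratio between vehicles was 0.38 on the probe set that stands for it and -0.13 on another.

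Other ribosome biogenesis factors, a list of 102 measured genes without the members, were also higher with PDGF-DD. Of these 96 were higher (51% over all genes) and 6 lower, with a median log2 ratio of 0.46. At least 1.5-fold higher were 38 (background 12.6%), and 0 were lower by that much (background 12.4%). The largest were Emg1, a methyltransferase of the small subunit RNA (425 against 171, 2.48-fold), Shq1, a chaperone of dyskerin (184 against 76.3, 2.41-fold), and Rrp8, a nucleolar methyltransferase (161 against 69.3, 2.32-fold). With IL-1b the median of this list was 0.12, with 10 at least 1.5-fold higher (background 13.2%) and 1 lower (background 11.8%). Between the vehicles it was 0.03.

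Genes of cytosolic ribosomal proteins, the components that these factors assemble, had no direction with PDGF-DD that held under each scaling. Of 79 listed 42 had a probe set of their own, and with PDGF-DD 35 of them were lower and 7 higher, with a median log2 ratio of -0.16, beside 0.01 over all genes. At least 1.5-fold higher were 3 of them, Rpl39, Rpl28 and Rps13 (background 12.6%), and 0 were lower by that much (background 12.4%). The intensities of these 3 did not exceed 197 on any array. With IL-1b the median was -0.08 and between the vehicles -0.11. With quantile normalization the PDGF-DD median turned to 0.10, with 38 genes higher and 3 lower, and with the values as deposited it was -0.08, where the median of all genes itself was 0.09 instead of 0.01. The members had medians of 0.68 and 0.76 under these settings, with 33 of 33 higher in both.

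Cell cycle genes were higher with PDGF-DD too, but differed from the biogenesis genes in the vehicles. S phase genes had a median log2 ratio of 1.08 with PDGF-DD, with 23 of 23 at least 1.5-fold higher (background 12.6%). G2/M genes had one of 0.96, with 20 of 23. With IL-1b the medians were -0.04 for S phase genes and -0.37 for G2/M genes. Between the vehicle arrays the S phase median was 1.499 and the G2/M median 2.48, where that of the biogenesis genes was -0.08. Mki67, a marker of dividing cells, was at 83.6 with the IL-1b vehicle, 64.8 with IL-1b, 858 with the PDGF-DD vehicle and 1799 with PDGF-DD. On the same vehicle arrays, which differed 10.3-fold in Mki67, 31 of 33 biogenesis genes were within 1.5-fold of their value on the other, against a background of 73.7%. The share of dividing cells was not measured, and its part in the PDGF-DD result was not tested. Cyclin D1 (Ccnd1), which drives cells out of rest, was 10.5-fold higher with IL-1b (2117 against 201) and 3.50-fold with PDGF-DD (4102 against 1173). The vehicle arrays were themselves 5.83-fold apart in Ccnd1, so the size of its IL-1b ratio depends on the vehicle chosen.

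**Figure D4:**
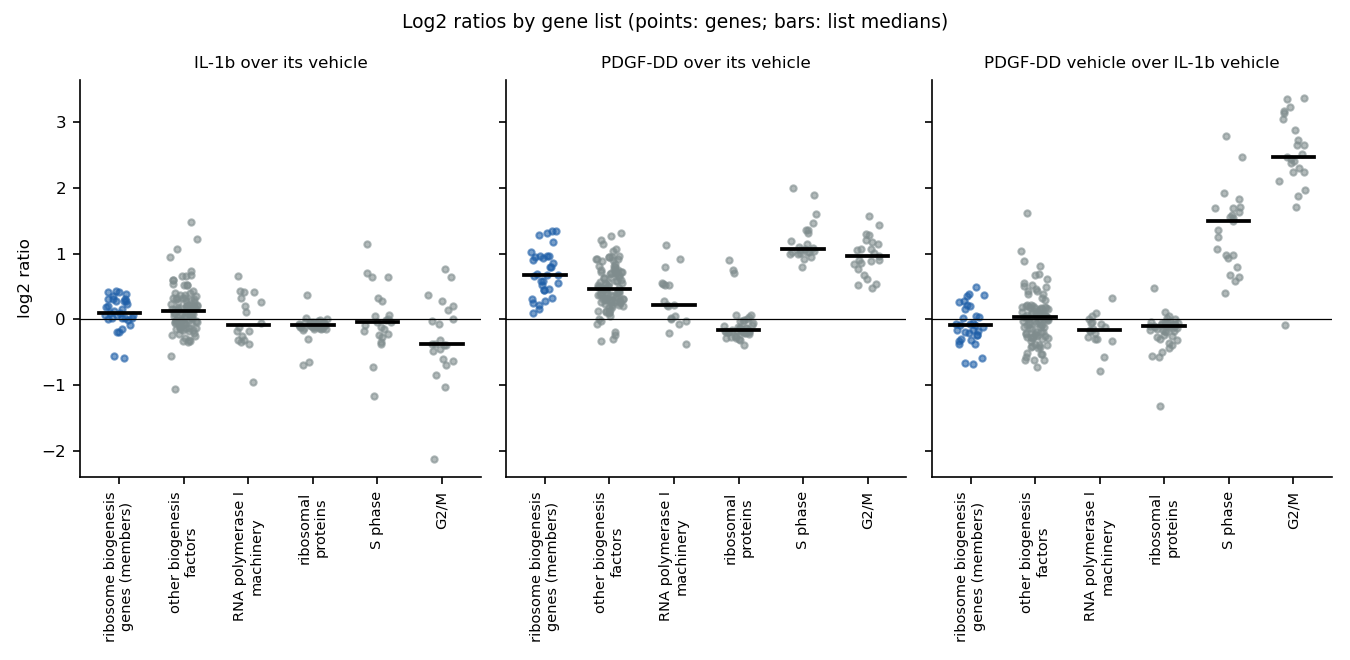
Log2 ratios of the genes of 6 lists in 3 comparisons; each point is 1 gene, bars are list medians, and the 33 ribosome biogenesis genes are in blue. In the PDGF-DD panel the members have a median of 0.68 and ribosomal proteins one of -0.16 (0.10 with quantile normalization), and in the vehicle panel the members stay near 0 while S phase and G2/M genes have medians of 1.499 and 2.48.

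Genes outside the list whose 3 log2 ratios lay nearest to the members' medians were Cfap36, Tyw5, Kdm8, Sik2 and Drg1, in that order, out of 9770 genes compared. Their summed absolute difference from the medians was 0.07 to 0.12. The measure rests on 4 arrays, and nothing about shared function follows from it.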

How the data were processed

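Total RNA of 4 cultures was labelled with biotin and hybridised to rat Affymetrix arrays, 1 per group, each assigned from its title. The deposited table holds intensities on a linear scale; the submitters' processing notes name MAS5, with no version or scaling target given in the sources used here. All 4 arrays had a median intensity of 53.3 as deposited.

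Each array was rescaled to a common mean after trimming 2% at either end (factors 0.951 to 1.03), values under the pooled 40th percentile (28.1) were set to it, and log2 was taken. Names came from a 2016 annotation of the platform: 20832 had 1 symbol, 436 several and 9831 were not listed; 20764 matched RefSeq's GRCr8 gene table by identifier. A gene was represented by its brightest probe set (mean of log2 intensity over the arrays). A gene was counted where it was above the floor on at least 1 array compared, at 1.5-fold and 2-fold. With 1 array per group no test was run. Older symbols in the lists were updated through RefSeq synonyms.

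Members, lists and the naming rule were chosen with earlier results of these data known. The naming rule takes members at least 1.5-fold from their vehicle, the 3 highest and lowest per factor and up to 3 genes per other list; the remaining members and Ccnd1 were added after their values were seen. Promoters came from RefSeq, the first entry per gene. Protein features had been planned and were not analysed here. The steps were tested on simulated data with Python 3.11.15, numpy 2.4.6 and pandas 2.3.3. Alternatives were the values as deposited, quantile normalization, other floors, other probe set rules and the other vehicle.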

Additional observations from a re-analysis of the deposited data

Results flagged for a closer look

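In 4 genes the log2 ratios with IL-1b and PDGF-DD lay on opposite sides of 0 and at least 1 apart. Each ratio is against its own vehicle on single arrays, and the difference was not tested. The share over all genes that met both conditions was not computed. By the size of the difference alone, with PDGF-DD the higher, it was 6 of 33 members and 6.56% of all genes. Heatr1 had a difference (IL-1b minus PDGF-DD) of -1.43, from log2 ratios of -0.09 and 1.35. Nop56 had one of -1.19, from -0.0048 and 1.18, Gnl3 one of -1.12, from -0.15 and 0.97, and Dkc1 one of -1.05, from -0.58 and 0.47. The sign with IL-1b turned in 3 of them: against the other vehicle the log2 ratio was 0.50 for Heatr1 and 0.01 for Gnl3, against the mean of the vehicles it was 0.21 for Heatr1, and with the values as deposited it was 0.02 for Nop56. Compared directly, the PDGF-DD array exceeded the IL-1b array by 0.85, 1.22, 0.96 and 0.67 on the log2 scale in Heatr1, Nop56, Gnl3 and Dkc1.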

How the results depend on the processing

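The median log2 ratios stayed within 0.1 of the reported values in all 22 alternatives tried: between 0.64 and 0.76 with PDGF-DD, between 0.10 and 0.17 with IL-1b and between -0.09 and -0.05 for the vehicles. With PDGF-DD, the number at least 1.5-fold higher lay between 19 and 23, and 0 were lower. In the reported setting 12.6% of all genes were higher and 12.4% lower by that much. Of the alternatives, shares over all genes were computed for the other vehicle only. The remaining counts have no background of their own. A count moved by over 1.5 times in 4 cases. With the values as deposited, 11 genes were at least 2-fold higher with PDGF-DD, against 6, because that scaling adds to every PDGF-DD log2 ratio. The median over all genes was 0.09 there, against 0.01. With the PDGF-DD vehicle as control, IL-1b gave 2 genes at least 1.5-fold higher (background 14.7%), against 0. With the mean of all probe sets, 1 gene was at least 1.5-fold lower with IL-1b, against 0, and 0 were lower on the PDGF-DD vehicle than on the IL-1b vehicle, against 2. Of 528 values of single genes under an alternative, 502 moved by no more than 0.32, the median absolute log2 ratio between the vehicle arrays, and 26 moved further, 20 of them with the other vehicle; no gene past 1.5-fold changed sign. The list medians were recomputed under both other scalings, a choice made after seeing the data: ribosomal proteins turned from -0.16 to 0.10 with PDGF-DD under quantile normalization, and the cause was not tested. No array could be left out, since each group has 1. Detection calls were not used, so signal over background was judged from the floor alone.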

Other observations

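Among other ribosome biogenesis factors, 3 of 102 exceeded their IL-1b vehicle by 2-fold or more with IL-1b, 1 array against 1. Over all genes measured 657 of 10679 did, so the share in the list was no larger. Rcl1, a nucleolar protein of small subunit RNA processing, had intensities of 231 with the IL-1b vehicle, 647 with IL-1b, 258 with the PDGF-DD vehicle and 318 with PDGF-DD, 2.80-fold higher with IL-1b. The IL-1b array alone stood apart there. Nol12, a nucleolar RNA-binding protein, read 94.9, 199, 108 and 239, so it was 2.10-fold higher with IL-1b and its PDGF-DD value was higher still. Rsl24d1, a 60S assembly factor, read 28.9, 67.3, 29.4 and 36.4, close to the floor on 3 arrays. Rrp8 was lower with IL-1b, at 49.2 against 102, and highest with PDGF-DD, at 161. Ddx52, an RNA helicase, differed 2.05-fold between the vehicles, at 302 for PDGF-DD against 147 for IL-1b.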
